A study of Mus musculus with 9 samples.

Results

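The transcripts described here are the 9 genes of the arm that adds and removes phosphate on the translation factor eIF2alpha, with the relay that reports mitochondrial stress to it. They are the kinases Eif2ak1 (HRI), Eif2ak2 (PKR), Eif2ak3 (PERK) and Eif2ak4 (GCN2), the substrate Eif2s1 (eIF2alpha itself), the phosphatase subunits Ppp1r15a (GADD34) and Ppp1r15b (CReP), and the relay genes Oma1 and Dele1. All 9 were found by gene ID among the 55536 genes of the deposited table, and all 9 passed the filter on low counts that left 15720 genes for testing. Expression was measured by RNA sequencing in 9 libraries of primary mouse myoblasts carrying floxed alleles of Uqcrfs1, the Rieske iron-sulfur subunit of respiratory complex III. The 3 groups of 3 libraries were Uqcrfs1-/- cells (KO, adenoviral Cre) with 7.5 µM oxybutynin, Uqcrfs1-/- cells with DMSO vehicle, and Uqcrfs1+/+ floxed cells (adenoviral GFP) with vehicle. All cells were seeded 72 h after virus, treatment began 24 h later and culture went on for 5 days, so that genotype goes with the virus given. Oxybutynin, a muscarinic receptor antagonist, was taken from a compound screen for proliferation of myoblasts with inhibited complex III. There were no floxed cells with oxybutynin, and the labels do not say whether the 3 libraries of a group came from separate cultures or animals, so p-values measure the spread between libraries only.

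Phosphorylation of eIF2alpha slows general translation initiation while mRNAs such as Atf4 are translated more, a programme called the integrated stress response. Each kinase answers to its own signal. HRI senses heme shortage and, through DELE1, mitochondrial stress, PKR senses double-stranded RNA, PERK senses misfolded protein in the endoplasmic reticulum, and GCN2 senses uncharged tRNA. When mitochondria are stressed, the inner-membrane protease OMA1 cleaves DELE1, and the fragment binds HRI in the cytosol. GADD34, itself induced by ATF4 and CHOP, and the constitutive CReP each bring protein phosphatase 1 to eIF2alpha and close the loop. Kinase and protease activity and eIF2alpha phosphorylation are set on the protein, which these RNA counts do not show.

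The 2 members that moved most, Ppp1r15a and Eif2ak2, are shown with their promoters, from 250 bases before to 50 bases after the start site of RefSeq (GRCm38.p6), because they moved in opposite directions. Capitals mark matches to the searched motifs.
Ppp1r15a, chr7:45526219-45526518, minus strand: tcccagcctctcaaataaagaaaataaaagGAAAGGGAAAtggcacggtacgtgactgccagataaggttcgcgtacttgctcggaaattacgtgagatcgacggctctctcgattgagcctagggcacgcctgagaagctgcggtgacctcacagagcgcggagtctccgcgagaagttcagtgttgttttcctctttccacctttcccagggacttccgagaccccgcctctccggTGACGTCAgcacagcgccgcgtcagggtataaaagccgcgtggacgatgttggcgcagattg
Eif2ak2, chr17:78882523-78882822, minus strand: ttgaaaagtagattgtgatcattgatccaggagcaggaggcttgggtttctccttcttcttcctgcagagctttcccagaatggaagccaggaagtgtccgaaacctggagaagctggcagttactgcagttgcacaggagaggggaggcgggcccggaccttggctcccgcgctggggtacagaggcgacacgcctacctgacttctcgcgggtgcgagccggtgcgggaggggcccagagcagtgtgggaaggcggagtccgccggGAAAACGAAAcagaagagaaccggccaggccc
In the Ppp1r15a promoter the capitals near the start site are the palindromic cyclic AMP response element TGACGTCA, the site read by CREB and ATF family factors, whose first base is at -12. Of all 32851 promoters in the table, 1.8% held this element. The other capitals, GAAAGGGAAA at -220, match the interferon response pattern, GAAA and again GAAA with 2 bases of any kind between, which 3.4% of promoters held. In the Eif2ak2 promoter the match to that pattern is GAAAACGAAA, with its first base at 19 after the start. Of the 7 members whose promoters are described, Eif2s1 held the pattern too, as GAAACAGAAA at -212. The CCAAT box (CCAAT on either strand, 37.4% of promoters) was found 6 times in Eif2ak3 and 1 time in Eif2ak1. The ATF4-C/EBP composite TGATGNAA (4.0% of promoters) and the endoplasmic reticulum stress element (CCAAT and CCACG with 9 bases of any kind between, 0.1%) had no match in these windows. All motifs were searched on both strands, and a match is a description of letters, not a bound site. In the annotation (GENCODE M21, GRCm38) all members are protein-coding, with Ppp1r15a at chr7:45522916-45526268 and Eif2ak2 at chr17:78852564-78882573 on the minus strand, and Eif2ak4 at chr2:118388618-118475234 and Eif2s1 at chr12:78861819-78887010 on the plus strand. The Eif2s1 window that was searched, chr12:78861822-78862121, lies inside that annotated gene. Its match at -212 is therefore upstream of the RefSeq start only.

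Library totals ran from 19604971 to 26226949 counts. Uqcrfs1 itself had 71, 69 and 46 counts in knockout oxybutynin cells, 51, 51 and 70 in knockout vehicle cells, and 1539, 1781 and 1881 in floxed vehicle cells, so that its counts follow the genotype labels. The 6 myoblast markers (Myod1, Myf5, Des, Pax7, Cdh15, Itga7) summed to 3430 to 3720 CPM (counts scaled to library size by TMM) in knockout oxybutynin, 2660 to 3530 in knockout vehicle and 2700 to 2820 in floxed vehicle libraries. No marker list of another cell type summed to more than 13.1 CPM in any library. That highest sum was of the 3 leukocyte markers, at 11.9 to 13.1, 10.8 to 12.3 and 5.11 to 5.88 CPM in the same order of groups, carried by Cd68 while Ptprc averaged at most 0.193 CPM. Its part in the results was not tested. Across all genes, log2 fold changes followed transcript GC content. Among the members called below, knockout vehicle replicate 3 lay within the range of the oxybutynin libraries for Eif2s1, Ppp1r15a, Dele1 and Eif2ak4. Called members are therefore also given after removal of the GC and length trend, and the oxybutynin comparison also without that library.

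Knockout vehicle cells differed from floxed vehicle cells in 5 of the 9 transcripts. Ppp1r15a and Dele1 rose, and Eif2ak2, Eif2ak4 and Eif2s1 fell, with Eif2ak4 close to the threshold and Eif2s1 turning to a rise once the GC and length trend was removed, whereas Eif2ak1, Eif2ak3, Ppp1r15b and Oma1 were not called. The 2 higher calls stand beside 29.9% of all 15720 tested genes called higher, and the 3 lower calls beside 33.4% called lower (edgeR quasi-likelihood test, Benjamini-Hochberg adjusted p under 0.05). The CPM ranges of knockout and floxed vehicle libraries did not overlap for the same 5 members, beside 66.7% of all tested genes. The members' counts are near this background. With the GC and length trend removed 3 members were called higher, beside 27.9% of all genes, and 2 lower, beside 30.2%. The members' median log2 fold change was -0.01, as was that of all tested genes.

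**Figure D1:**
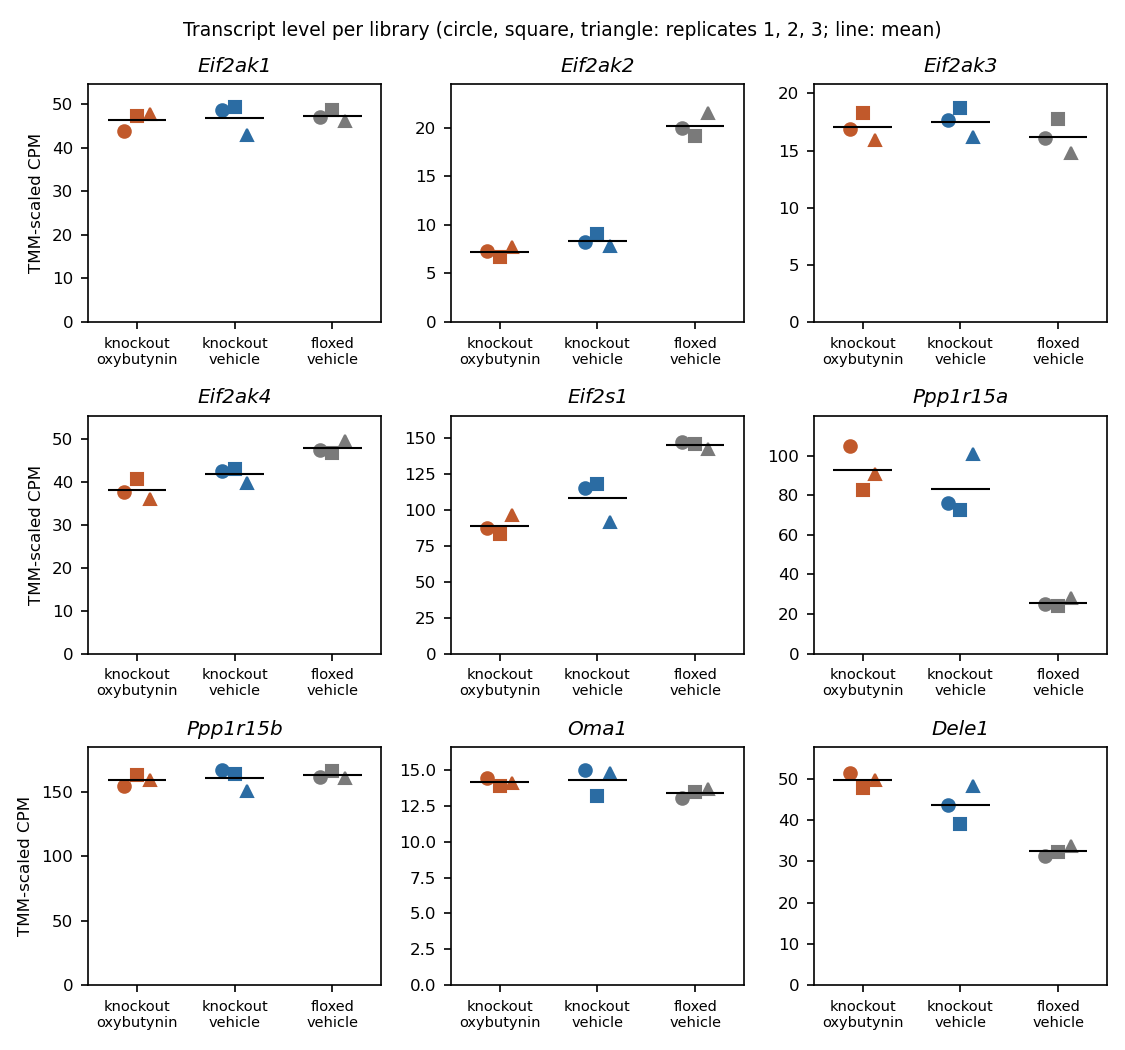
TMM-scaled CPM of the 9 members in each of the 9 libraries, by group, with the mean of 3 libraries as a line and replicates 1, 2 and 3 as circle, square and triangle. Ppp1r15a and Dele1 lie higher, and Eif2ak2, Eif2ak4 and Eif2s1 lower, in both knockout groups than in floxed vehicle cells. These levels are before the correction for GC content and length, which turns the sign of Eif2s1.

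Among the kinases, Eif2ak2, an interferon-stimulated gene whose product binds double-stranded RNA, fell most. It had 7.35, 6.65 and 7.73 CPM in knockout oxybutynin libraries, 8.24, 9.04 and 7.81 in knockout vehicle libraries, and 20, 19.2 and 21.5 in floxed vehicle libraries. Every knockout library was far below every floxed one. Between the vehicle groups the transcript fell by 1.27 ± 0.11 on the log2 scale (SE, 3 libraries a group; edgeR adjusted p = 3e-08), a 2.42-fold lower level, and ranked 1739th from the lowest of 15720 fold changes. Removal of the GC and length trend left a smaller fall, at -0.78 (adjusted p = 1.3e-06). In bulk RNA, less transcript per cell and fewer cells holding the transcript cannot be told apart.

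Eif2ak4, which encodes the amino acid sensor, gave the least secure call of the set. It had 37.5, 40.6 and 36 CPM in knockout oxybutynin cells, 42.6, 42.9 and 39.8 in knockout vehicle cells, and 47.4, 46.7 and 49.6 in floxed vehicle cells. The vehicle groups did not overlap, and the log2 fold change was -0.20 ± 0.08 (edgeR adjusted p = 0.0497). The call was lost with DESeq2 (adjusted p = 0.0914), with RLE scaling, with library totals as the only scaling, without the filter on low counts, and in the fit of the 2 groups alone. It was also lost on leaving out any of the 9 libraries except knockout vehicle replicate 2, with adjusted p-values from 0.0295 to 0.169 over the 9 fits. Where the call was lost the log2 fold change was still -0.22 to -0.15. It was kept among protein-coding genes only, at -0.26 (adjusted p = 0.0144), and with the GC and length trend removed, at -0.25 (adjusted p = 0.00306).

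Eif2ak1, whose product receives the DELE1 signal, had 43.8, 47.2 and 47.8 CPM in knockout oxybutynin cells, 48.6, 49.2 and 42.8 in knockout vehicle cells and 47, 48.7 and 46 in floxed vehicle cells. The groups overlapped, and the vehicle groups differed by -0.01 ± 0.09 on the log2 scale (edgeR adjusted p = 0.92). Of its exon bases, 487 (8.6%) lie under Aimp2 on the opposite strand, and without knowing whether strand was used in counting, the origin of reads in this stretch cannot be told apart. Eif2ak3, the endoplasmic reticulum kinase, had 16.9, 18.3 and 15.9 CPM in knockout oxybutynin cells, 17.7, 18.7 and 16.2 in knockout vehicle cells and 16.1, 17.8 and 14.8 in floxed vehicle cells. The groups overlapped, with a log2 difference of 0.11 ± 0.11 between the vehicle groups (edgeR adjusted p = 0.381).

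Compared per kilobase of exon, Eif2ak1 was the most abundant kinase transcript in every group, followed by Eif2ak4. Eif2ak3 was the least abundant in floxed vehicle cells, below Eif2ak2, and Eif2ak2 was the least abundant in both knockout groups, below Eif2ak3. The mean levels of Eif2ak2 were 1.42 ± 0.107, 1.64 ± 0.121 and 3.95 ± 0.229 CPM per kb (SD, n = 3) in knockout oxybutynin, knockout vehicle and floxed vehicle cells. Those of Eif2ak3 were 2.83 ± 0.196, 2.91 ± 0.207 and 2.69 ± 0.247 CPM per kb. Within each group the ranges of neighbours in this order did not overlap, and the order was the same with the longest transcript as length. Eif2ak2 made up 8.11% ± 0.81 of the summed kinase level in knockout oxybutynin cells, 8.89% ± 0.304 in knockout vehicle cells and 18.5% ± 1.1 in floxed vehicle cells, while Eif2ak1 made up 46.6% ± 1.59, 44.9% ± 0.656 and 38.9% ± 1. The sum of the kinases was 17.5 ± 0.557, 18.4 ± 1.15 and 21.4 ± 0.2 CPM per kb. These shares are descriptions without a test.

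**Figure D2:**
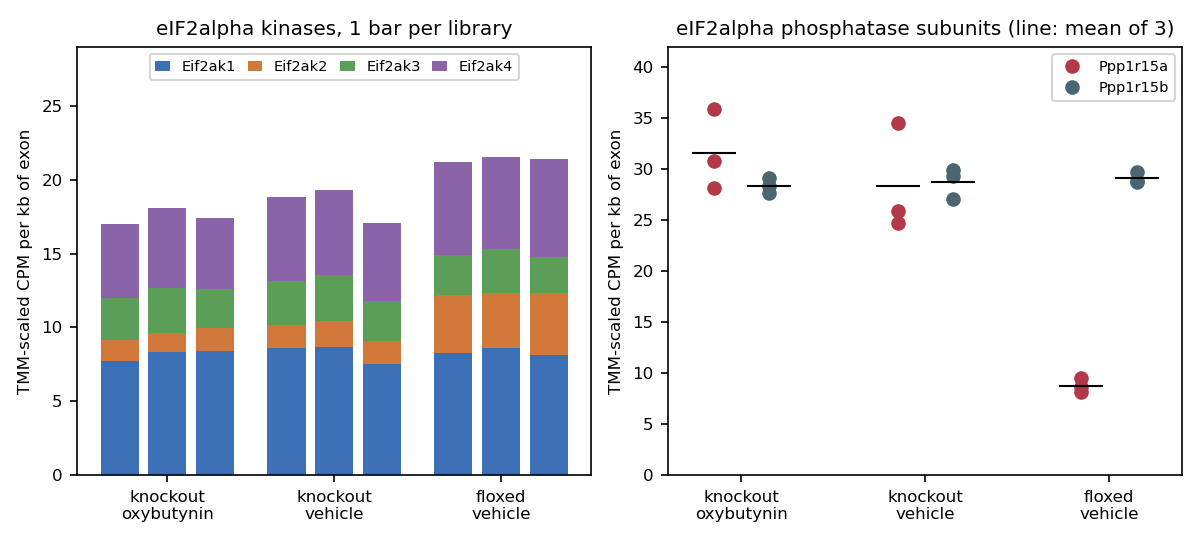
Left, TMM-scaled CPM per kb of exon of the 4 eIF2alpha kinases, stacked, with 1 bar per library; right, the 2 phosphatase subunits in the same unit, with points for libraries and lines for means of 3. The Eif2ak2 segment is smaller in both knockout groups, and Ppp1r15a lies near Ppp1r15b in knockout cells but at 0.301 times its level in floxed vehicle cells.

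The substrate Eif2s1 was lower in knockout cells before, and higher after, removal of the GC and length trend. It had 87, 83.3 and 96 CPM in knockout oxybutynin libraries, 115, 118 and 91.7 in knockout vehicle libraries, and 147, 146 and 142 in floxed vehicle libraries. Every knockout library was below every floxed one, and knockout vehicle replicate 3 lay within the oxybutynin range. The log2 fold change between the vehicle groups was -0.42 ± 0.09 (edgeR adjusted p = 0.000856), and it ran from -0.48 to -0.31 on leaving out single libraries. With 41.9% GC, Eif2s1 is the most AT-rich member, and the 831 protein-coding genes within 1 percentage point of its GC content had a median log2 fold change of -0.85. Once the GC and length trend was removed, the sign turned, to 0.39 ± 0.07 (edgeR adjusted p = 0.000114). The direction of Eif2s1 therefore depends on that correction.

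The phosphatase subunits parted. Ppp1r15a, the inducible subunit, rose most of all members, with 105, 82.7 and 90.5 CPM in knockout oxybutynin libraries, 76.1, 72.4 and 101 in knockout vehicle libraries, and 25.2, 24 and 27.8 in floxed vehicle libraries. The lowest knockout library was well above the highest floxed one. Between the vehicle groups it was 3.24-fold higher (log2 fold change 1.70 ± 0.13, edgeR adjusted p = 3.4e-09), the 511th highest of 15720 fold changes. With 55.9% GC it is the most GC-rich member, and genes of like GC content had a median of 0.37. The rise remained at 1.22 (adjusted p = 2.38e-09) with the trend removed. Ppp1r15b, the constitutive subunit, had 155, 163 and 159 CPM in knockout oxybutynin cells, 167, 164 and 151 in knockout vehicle cells and 162, 166 and 161 in floxed vehicle cells. Its groups overlapped, and the vehicle groups differed by -0.02 ± 0.07 on the log2 scale (edgeR adjusted p = 0.831). Per length, the ratio of Ppp1r15a to Ppp1r15b was 1.12 ± 0.168 in knockout oxybutynin cells, 0.993 ± 0.24 in knockout vehicle cells and 0.301 ± 0.0267 in floxed vehicle cells (SD, n = 3). This ratio is a description without a test.

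In the mitochondrial relay, the signalling protein's transcript moved and the protease's was not called. Dele1 had 51.4, 47.9 and 49.7 CPM in knockout oxybutynin cells, 43.6, 39.2 and 48.4 in knockout vehicle cells, and 31.2, 32.4 and 33.8 in floxed vehicle cells. All knockout libraries were above all floxed ones. Dele1 was 1.35-fold higher in knockout than in floxed vehicle cells (log2 fold change 0.43 ± 0.09, edgeR adjusted p = 0.000657). Its value was 0.23 once the GC and length trend was removed (adjusted p = 0.0117), and 0.17 (adjusted p = 0.0611) when knockout vehicle replicate 3 was left out as well, which ended the call. Oma1 had 14.5, 13.9 and 14.1 CPM in knockout oxybutynin cells, 15, 13.2 and 14.8 in knockout vehicle cells and 13.1, 13.5 and 13.7 in floxed vehicle cells. The vehicle groups overlapped, with a difference of 0.09 ± 0.10 on the log2 scale (edgeR adjusted p = 0.443).

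Per kilobase of exon, the order of all members differed between the groups. In floxed vehicle cells, Eif2s1 (29.2 CPM per kb) and Ppp1r15b (29.1) stood above Ppp1r15a (8.75), Eif2ak1 (8.33), Eif2ak4 (6.43), Oma1 (6.27), Dele1 (4.40), Eif2ak2 (3.95) and Eif2ak3 (2.69). In that order Eif2s1 and Ppp1r15b, Ppp1r15a and Eif2ak1, and Eif2ak4 and Oma1 overlapped between libraries. In knockout vehicle cells Ppp1r15b (28.8) and Ppp1r15a (28.4) overlapped at the top, Eif2s1 followed at 21.9, and Dele1 (5.92) stood among Oma1 (6.69) and Eif2ak4 (5.60), overlapping both. With the longest transcript as length, the order changed in both of these groups. In floxed cells Eif2s1 was above Ppp1r15b, at 41.7 to 43.1 against 28.8 to 29.7 CPM per kb. Eif2ak1 was above Ppp1r15a there, at 10.6 to 11.3 against 8.56 to 9.91, and Dele1 overlapped Oma1. In knockout vehicle cells Dele1, at 8.74 to 10.8, stood above Oma1 (6.9 to 7.83) and Eif2ak4 (7.5 to 8.1). Eif2s1, at 26.9 to 34.6, then overlapped Ppp1r15b and Ppp1r15a. These places in the order therefore rest on the annotation.

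**Figure D3:**
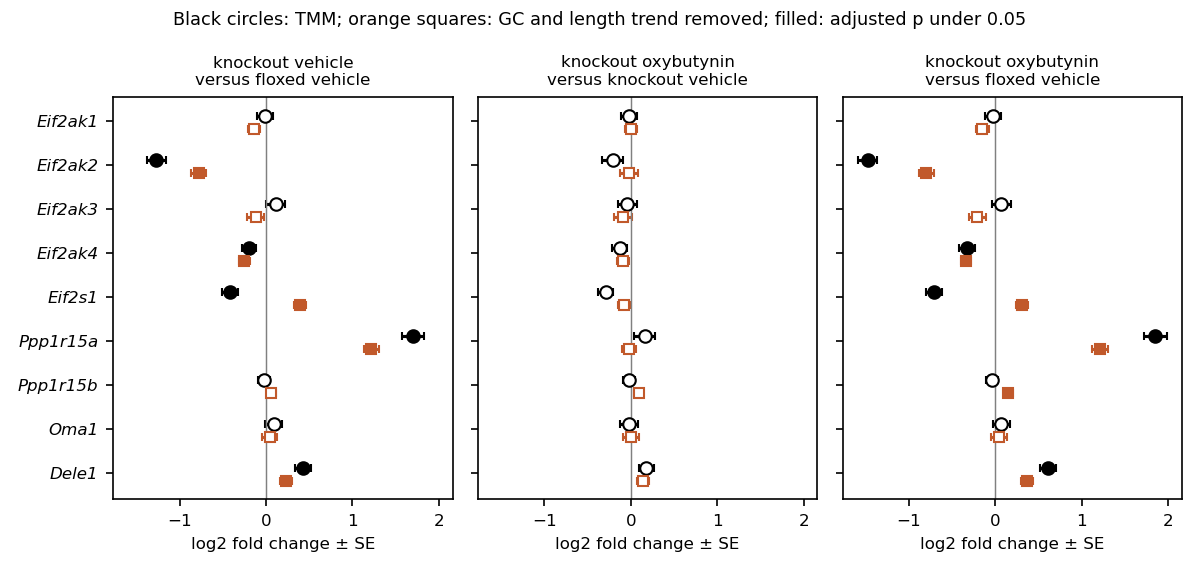
Log2 fold change of each member with its SE in the 3 comparisons, from the TMM-scaled edgeR fit (black circles) and with the GC and length trend removed (orange squares); filled symbols have an adjusted p under 0.05. Ppp1r15a is highest and Eif2ak2 lowest in both comparisons with floxed vehicle cells, and Eif2s1 changes sign with the correction.

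The place of each member against genes of its own GC content is shown in the plot of fold change by GC content. The members span 41.9% (Eif2s1) to 55.9% GC (Ppp1r15a). For Eif2ak2, at 44.4% GC, the log2 fold change of -1.27 lay below the middle range of its 1268 GC neighbours, whose quartiles were -0.85 and -0.07. For Ppp1r15a, 1.70 lay above the quartiles 0.08 and 0.75 of its 1322 neighbours. Dele1, at 0.43, lay inside the quartiles of -0.05 and 0.62, and Eif2s1, at -0.42, near the upper quartile of -0.40 among its own. Eif2ak1, Eif2ak3, Eif2ak4, Ppp1r15b and Oma1 lay within the quartiles of theirs.

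**Figure D4:**
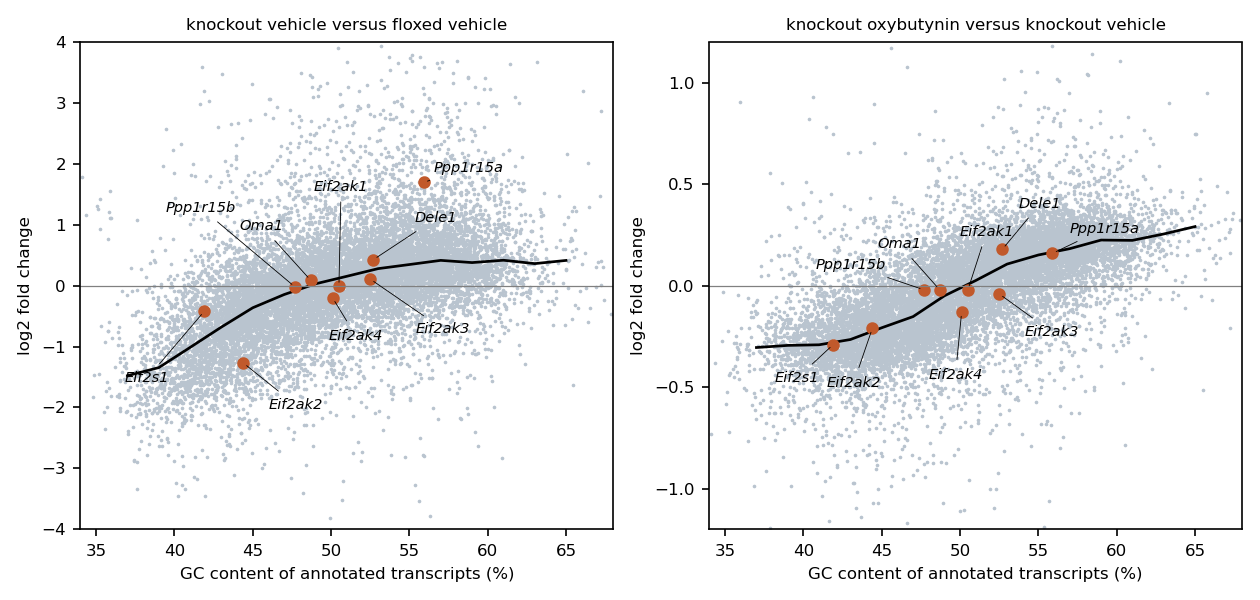
Log2 fold change against transcript GC content for protein-coding genes (grey points), with the running median in bins of GC content (line) and the members (orange); left, knockout vehicle versus floxed vehicle, right, knockout oxybutynin versus knockout vehicle, with a few genes beyond the axes. Ppp1r15a lies above and Eif2ak2 below the line on the left, and both lie near it on the right.

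The called genes of the ATF4 and CHOP programme moved in 1 direction, and what raised them was not tested. Of 21 genes of the ATF4 and CHOP programme, 20 rose in knockout against floxed vehicle cells, 0 fell and Cebpg was not called. Of all tested genes 29.9% were called higher and 33.4% lower. The median log2 fold change of the list was 1.41 against -0.01 for all tested genes. The list was chosen with earlier results of these data known. Once the GC and length trend was removed 20 of the 21 were called higher and 0 lower, beside 27.9% and 30.2% of all genes. Cebpg (0.40) was gained and Ddit4 (0.03) lost, both named after their values were seen. Cth, which makes cysteine, averaged 69.9 ± 4.93 CPM in knockout vehicle and 11 ± 1.41 in floxed vehicle cells (SD, n = 3; log2 fold change 2.66, edgeR adjusted p = 5.64e-12). Ddit3, which encodes CHOP, averaged 47.6 ± 4.95 CPM in knockout vehicle and 6.13 ± 0.567 in floxed vehicle cells (7.77-fold higher, edgeR adjusted p = 5.74e-12). Trib3, a pseudokinase target of CHOP, was 9.6-fold higher (edgeR adjusted p = 7.9e-12) and the stress cytokine Gdf15 8.59-fold higher (edgeR adjusted p = 1.14e-11). Atf4, named after its values were seen, was 2.19-fold higher, at 834 ± 89.1 CPM in knockout vehicle and 380 ± 8.13 CPM in floxed vehicle cells (edgeR adjusted p = 6.81e-09).

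Among the partners of eIF2alpha 4 of 8 genes were called higher and 3 lower, beside 29.9% and 33.4% of all tested genes. The other eIF2 subunits fell, with log2 fold changes of -0.70 (Eif2s2), -0.56 (Eif2s3x) and -1.01 (Eif2s3y). Of the 5 subunits of eIF2B, the exchange factor that phosphorylated eIF2 inhibits, 4 rose, from 0.24 (Eif2b3) to 0.58 (Eif2b5). Eif2b1, at 0.07, was not called. Like Eif2s1, the eIF2 subunit transcripts are AT-rich (37.3% to 43.9% GC). With the trend removed 0 of these 8 genes were called lower, beside 30.2% of all genes, and 4 higher, beside 27.9%. The 4 were Eif2s2, Eif2s3y, Eif2b3 and Eif2b5. Eif2b2 (0.10), Eif2b4 (-0.16) and Eif2s3x (-0.04) were then not called. Neither the fall of the eIF2 subunits nor a division between eIF2 and eIF2B held with the correction, and no difference between the complexes was tested. Eif2s3x and Eif2s3y are close paralogs that can share reads.

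Of 8 genes that act on the kinases 3 were called higher and 3 lower, near the shares of all tested genes (29.9% higher and 33.4% lower). Dnajc3, a co-chaperone known as an inhibitor of PKR and PERK, fell to 34.8 ± 1.03 CPM in knockout vehicle cells against 77.7 ± 1.01 in floxed vehicle cells (log2 fold change -1.16, edgeR adjusted p = 2.54e-09). Impact, which restrains GCN2, fell by 0.80 and the adaptor Nck1 by 1.04 on the log2 scale. With the trend removed Dnajc3 and Impact stayed lower, at -0.50 and -0.43, and Nck1, at -0.12, was not called. Adar, an RNA editor that limits PKR activation, rose by 0.44. The GCN2 co-activator Gcn1 (0.46) and the PKR activator Prkra (0.45), both named after their values were seen, rose too. All 3 stayed higher with the trend removed, where Hspa5 (0.20) was also called higher and Tarbp2 (-0.33) lower.

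Of the 3 catalytic subunits of protein phosphatase 1, which the Ppp1r15 proteins bring to eIF2alpha, Ppp1ca rose (0.35, edgeR adjusted p = 0.0041) and Ppp1cb fell (-1.05, edgeR adjusted p = 5.91e-08). These calls stand beside 29.9% of all tested genes called higher and 33.4% lower. Neither gene was called with the trend removed (-0.06 and -0.07). Ppp1cc was then called lower at -0.26, beside 30.2% of all genes.

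Around OMA1, 10 of 13 mitochondrial proteases and OMA1 partners rose, 2 fell and 1 was not called, beside 29.9% of all tested genes higher and 33.4% lower, with a median log2 fold change of 0.44 against -0.01 for all tested genes. With the trend removed 4 were called higher (Lonp1, Parl, Stoml2 and Afg3l2) and 1 lower, beside 27.9% and 30.2% of all genes. The median was then 0.07. Lonp1, the matrix protease, averaged 247 ± 28.1 CPM in knockout vehicle cells and 76.5 ± 4.37 in floxed vehicle cells (3.23-fold, edgeR adjusted p = 1.28e-10) and stayed higher with the trend removed, at 1.23. Yme1l1, the inner-membrane protease that shares the substrate OPA1 with OMA1, fell by 1.51 on the log2 scale, and by 0.21 (adjusted p = 0.0144) with the trend removed. Stoml2 (0.63), a membrane scaffold protein, and Clpp (0.55), a matrix protease, rose, and Opa1, named after its values were seen, fell by 0.41. With the trend removed Stoml2 was at 0.24 and still called, and Clpp (0.10) and Opa1 (0.06) were not.

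Among the other sensors of endoplasmic reticulum stress, 4 of 6 rose and 1 fell, beside 29.9% of all tested genes called higher and 33.4% lower. With the trend removed 5 were called higher and 0 lower, beside 27.9% and 30.2% of all genes. Xbp1 and Ern1, transcription factor and sensor of the IRE1 branch, rose by 0.54 and 0.49 on the log2 scale. Mbtps1, a protease that activates ATF6, rose by 0.33. Mbtps2, the protease that cuts ATF6 after it, fell by 0.62, and its value turned to 0.35 with the trend removed, where Atf6 itself, named after its values were seen, was called higher at 0.60. Of 16 interferon-stimulated genes, the class to which Eif2ak2 belongs, 12 were tested. Bst2 (1.29), Stat2 (0.35) and Ddx58 (0.35) rose on the log2 scale, 0 fell and 9 were not called, beside 29.9% of all tested genes called higher and 33.4% lower. Most were scarce, and only Stat2 averaged above 10 CPM in a group. With the trend removed Bst2 and Ddx58 stayed higher, Stat2 was not called and Irf9 was called lower, at -0.32 (adjusted p = 0.0398).

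**Figure D5:**
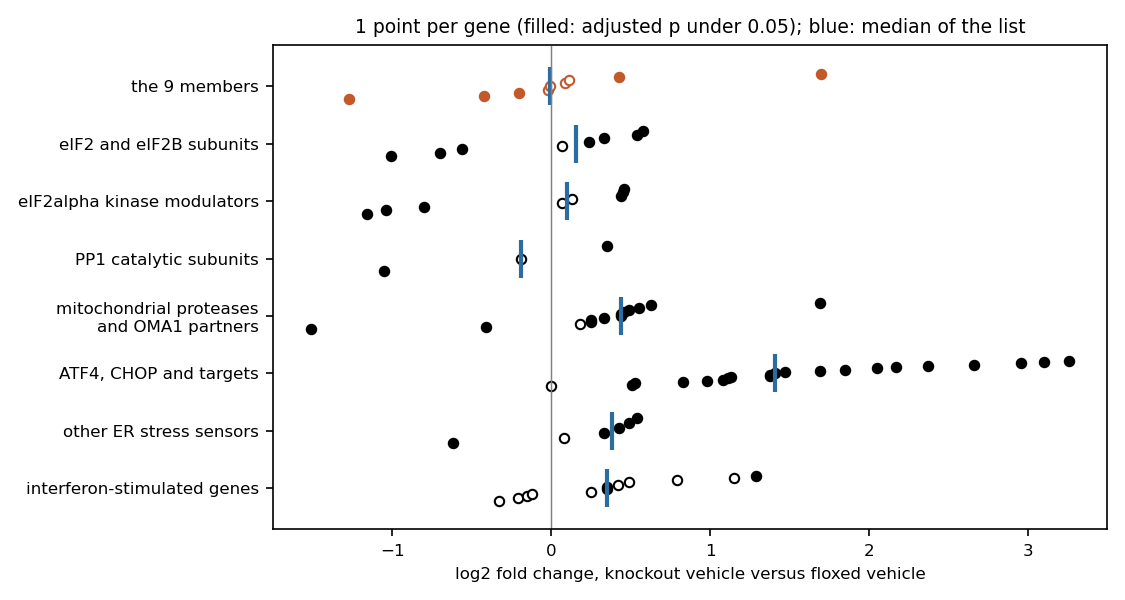
Log2 fold change between knockout and floxed vehicle cells for the members (orange) and the genes of 7 related lists (black), with 1 point per tested gene, filled where the adjusted p is under 0.05, and the median of each list in blue. The ATF4, CHOP and target genes have a median of 1.41, and the members are spread on both sides of 0.

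The genes whose pattern over the 9 libraries was most like that of each called member were found among 8712 protein-coding genes averaging 10 CPM or more, by the root mean square difference of centred log2 CPM. They were Plcd1 (0.052) and Arsa (0.076) for Ppp1r15a, and Usf3 (0.053) and Synj2bp (0.057) for Eif2ak2. They were Adar (0.026) and Csnk1g2 (0.032) for Dele1, Armc1 (0.040) and Rspry1 (0.042) for Eif2s1, and Col3a1 (0.030) and Rnf214 (0.037) for Eif2ak4.

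With oxybutynin, edgeR called 0 of the 9 transcripts in knockout cells. Of all tested genes 1 was called higher (0.00636%) and 1 lower (0.00636%), while 4084 of 15720 had an unadjusted p under 0.05. With other scalings the higher and lower calls over all genes were 2 and 5 (RLE) or 10 and 148 (library totals), and DESeq2 called 190 and 967. Among the members 1, Eif2s1, had an unadjusted p under 0.05, beside 26% of all tested genes, and 1, Eif2ak2, had groups that did not overlap, beside 22.1%. The log2 fold changes with oxybutynin against vehicle in knockout cells were largest for Eif2s1, at -0.29 ± 0.09 (edgeR adjusted p = 0.0991), which DESeq2 called lower (adjusted p = 0.0407) beside 10.2% of the genes for which it gave an adjusted p. Eif2ak2 differed by -0.21 ± 0.12 (edgeR adjusted p = 0.269) and Dele1 by 0.18 ± 0.09 (adjusted p = 0.212). Ppp1r15a differed by 0.16 ± 0.12 (edgeR adjusted p = 0.412) and Eif2ak4 by -0.13 ± 0.09 (adjusted p = 0.329). The other members differed by 0.04 or less in size. With the GC and length trend removed the values of Eif2s1, Eif2ak2 and Ppp1r15a were -0.08, -0.02 and -0.02. Those of Dele1 and Eif2ak4 changed less, to 0.14 (edgeR adjusted p = 0.396) and -0.09 (adjusted p = 0.603). In that fit 0 members and 0 genes in all were called.

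These values depended on knockout vehicle replicate 3. Without it 3 members were called with oxybutynin against vehicle: Ppp1r15a higher at 0.32 (edgeR adjusted p = 0.0314), Dele1 higher at 0.26 (adjusted p = 0.0298) and Eif2s1 lower at -0.39 (adjusted p = 0.0039), beside 11.6% of all genes higher and 14.4% lower. Calls over all genes then came to 4188, against 2 with all libraries, 63 without knockout vehicle replicate 2, and 0 without knockout vehicle replicate 1 or without any 1 of the oxybutynin libraries. With that library left out and the GC and length trend removed, 0 members and 508 genes were called. The libraries also differed in composition, with the small nuclear RNA Rn7sk at 3.36% to 3.98% of counts in knockout oxybutynin, 2.36% to 3.59% in knockout vehicle and 1.93% to 2.10% in floxed vehicle libraries. Mitochondrially encoded genes took 1.58% to 2.12%, 1.95% to 2.71% and 3.07% to 3.14% in the same order of groups. By these shares knockout vehicle replicate 2 stood apart within its group, at 2.36% Rn7sk and 2.71% mitochondrial counts, against 3.59% and 1.95% in replicate 3 and 3.43% and 2.04% in replicate 1. The part of these shares in the result was not tested. Of the 71 tested genes of the pathway lists, 0 were called with oxybutynin and 31 had an unadjusted p under 0.05, beside 26% of all tested genes. DESeq2 called 1 list gene higher and 8 lower, beside 190 and 967 of 9469 genes in all. Without knockout vehicle replicate 3, 17 of the list genes were called higher and 11 lower, beside 11.6% and 14.4% of all genes.

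Knockout oxybutynin cells were also set against floxed vehicle cells, a comparison that shares libraries with both others. Ppp1r15a (log2 fold change 1.85) and Dele1 (0.61) were higher, beside 35.1% of all tested genes, and Eif2ak2 (-1.48), Eif2s1 (-0.71) and Eif2ak4 (-0.33) were lower, beside 36.9% (edgeR adjusted p from 7.12e-10 to 0.00213). The ranges of 6 members did not overlap, these 5 and Oma1, beside 78.9% of all tested genes, and Oma1 itself, at 0.07, was not called. The call of Eif2ak4 was kept here on leaving out each library, with adjusted p-values from 0.000458 to 0.0183. With the GC and length trend removed Eif2ak4 (-0.34), Eif2ak2 (-0.80), Ppp1r15a (1.21) and Dele1 (0.37) kept their calls, Eif2s1 turned to 0.31 (adjusted p = 0.000855), and Ppp1r15b, at -0.04 before, was called higher at 0.15 (adjusted p = 0.0173). That made 4 members higher, beside 29.5% of all genes, and 2 lower, beside 31.1%. Of the 71 tested list genes 45 were higher and 15 lower in this comparison. The ATF4 and CHOP list had 20 higher and Cebpg lower at -0.23 (edgeR adjusted p = 0.0247), with a median of 1.61 against 0 for all tested genes.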

How the data were processed

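RNA was sequenced from 9 libraries of primary mouse myoblasts in 3 groups of 3. The authors deposited raw counts, as whole numbers for each gene. Per the labels' protocols, Trizol-purified total RNA went into directional NEBNext libraries. STAR 2.7.0e, DESeq2 1.26.0, FastQC, cutadapt and Trim Galore 0.6.0 stand in the submitters' processing notes, with GRCm38 (mm10). How reads were counted, whether strand was used, and which annotation was taken are points on which the labels are silent.

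Counts were tested with edgeR 4.0.16 in R 4.3.3: filterByExpr on the 3 groups (15720 genes), TMM scaling, glmQLFit and glmQLFTest fitted to the 9 libraries together, each group with a mean of its own (6 residual degrees of freedom). P-values were Benjamini-Hochberg adjusted over all tested genes and called under 0.05; the scripts were tested on simulated data. CPM values use TMM-scaled library sizes. Coordinates, exon lengths and GC content came from GENCODE M21, and promoters, described for 7 of the 9 members, from RefSeq. The GC and length trend was removed per library by splines with 5 degrees of freedom for each.

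The members and the 7 lists (75 genes, 71 tested) were chosen with earlier results of these data known. Named from each list were up to 4 called genes with the lowest adjusted p, and whole complexes. Alternatives were DESeq2 1.42.0, RLE scaling, library totals, no filter, 2 groups only, protein-coding genes only, GC and length trend removal, an adjusted p under 0.01, and leaving out each library. The longest transcript as length, and trend removal without knockout vehicle replicate 3, were added after seeing the data.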

Additional observations from a re-analysis of the deposited data

How the results depend on the processing

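In knockout vehicle against floxed vehicle cells, the members' counts of 2 higher and 3 lower stayed within 1.5 times under every alternative run. With the GC and length trend removed, 6 rather than 10 of the 71 tested list genes were called lower, beside 30.2% rather than 33.4% of all genes. Higher calls among them were 39 rather than 45, beside 27.9% rather than 29.9% of all genes. Without knockout vehicle replicate 3 as well, 6 list genes were lower and 38 higher, beside 4391 and 4100 of 16097 genes. Eif2s1 turned to 0.39, or 0.45 without that library. Against floxed vehicle cells, knockout oxybutynin cells with the trend removed had 4 members called higher in place of 2, also without that library. Of all genes 29.5% were then called higher in place of 35.1%. List genes called lower were 7 in place of 15, beside 31.1% in place of 36.9% of all genes, and 36 were higher in place of 45. Eif2s1 was at 0.31 with or without that library, and Ppp1r15b at 0.15, or 0.16 without it. By construction these shifts come from the GC content and length terms, and what gave the libraries that trend was not tested.

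The oxybutynin comparison in knockout cells was the least stable. Over all genes 2 were called, against 1157 with DESeq2 (190 higher, 967 lower), 7 with RLE scaling (2 higher, 5 lower), 158 with library totals (10 higher, 148 lower), 1099 without a filter, 1 among protein-coding genes only, 0 with the GC and length trend removed, 508 with the trend removed and knockout vehicle replicate 3 left out, and 0 at an adjusted p under 0.01. Leaving out each library gave 0 to 4188. Members called lower came to 1 with DESeq2, and on leaving out each library members called came to 0 to 2 higher and 0 to 1 lower. The lists held 75 genes, 71 of them tested in the main fit. Of these DESeq2 called 1 higher and 8 lower, beside 190 and 967 of 9469 genes in all. Library totals gave 2 lower, beside 148 of 15720 genes. The fit without a filter gave 2 higher and 8 lower, beside 277 and 822 of 30103. With the trend removed and knockout vehicle replicate 3 left out 2 were higher, beside 181 of 16097. Leaving out each library gave 0 to 17 higher and 0 to 11 lower. The most came without knockout vehicle replicate 3, beside 1873 and 2315 of 16097 genes. The cause of these differences was not tested. No scaling moved the median of all genes by more than 0.07 on the log2 scale.

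No paired analysis was possible because the labels number the libraries in a single run and share no replicate number between groups. At 19604971 counts or more per library, the rarest member, Eif2ak2, had at least 169 counts, so depth limited chiefly the interferon-stimulated list, of which 4 genes were not tested.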
